A study of Mus musculus with 6 samples.

Results

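The kinesins, kinesin light chains, cytoplasmic dyneins and dynactin subunits 1 to 6 of the mouse were followed in vagal jugular-nodose ganglia. They were taken by gene symbol (Kif, Klc1 to Klc4, Dync1 and Dync2 genes, and Dctn1 to Dctn6), which gave 58 of the 32719 genes in the count files. Of these, 28 were set down as transport motors (kinesin-1 heavy and light chains, kinesin-2, kinesin-3, dynein-1 and dynactin), 13 as mitotic kinesins and 17 as other non-mitotic members. A total of 54 had enough counts to be tested, all 28 transport motors, 16 of the other members and 10 of the mitotic kinesins.

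RNA came from 6 libraries of ganglia of male C57BL/6J mice, whose genotype is labelled WT in all. The protocol gives 2 weeks of subcutaneous osmotic pumps that held PBS, or PBS with S961, a peptide that blocks the insulin receptor, at 10 nmol per week. The titles put 3 libraries in a control and 3 in a treated group, but the treatment label reads S961 for all 6, so the PBS origin of the controls rests on titles and protocol. Age is not given in the sources used here, nor whether a library is 1 animal, so p-values measure the spread between these samples, which may be technical. The tissue label reads spinal cord. Of 12 spinal cord markers, 9 averaged under 1 CPM (counts per 1000000 of the scaled library total), among them Mnx1, Olig1, Olig2 and Mog. Means of the other 3 in control and in treated libraries were 41.0 and 31.3 CPM for Slc5a7, 11.4 and 11.3 CPM for Aqp4, and 0.730 and 2.17 CPM for Gfap. A list of 20 pan-neuronal genes, which does not tell ganglia from spinal cord, summed to between 11402 and 15959 CPM.

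Kinesins and cytoplasmic dynein are ATP-driven motors that walk on microtubules. In axons most transport kinesins carry vesicles, mitochondria and cytoskeletal cargo outward from the cell body, and dynein with its cofactor dynactin brings endosomes, lysosomes and survival or injury signals back. Vagal sensory neurons reach organs of the chest and abdomen through long axons, and much of what those axons need is made in the ganglion. Mitotic kinesins build the spindle and divide the cell, and mature neurons do not divide.

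The stretches before the starts of a pair of abundant transport motors and of 1 mitotic kinesin are shown as examples of the motif counts that follow them. They are from RefSeq on GRCm38.p6 and run 5′ to 3′ on the gene's strand, without bases of annotated exons. Kif5c, a kinesin-1 heavy chain (chr2:49619036-49619285, plus strand), and Klc1, a kinesin-1 light chain (chr12:111758618-111758848, plus strand), carry in capitals the palindrome TGACGTCA, known as the cyclic AMP response element. Kif22, a chromosome-binding mitotic kinesin (chr7:127042472-127042670, minus strand), carries in capitals the reverse complement of TTTGAA, a motif known from promoters of cell cycle genes. Of 2 matches in the 250 bases before its start, 1 is printed. The match nearest the start, ending 11 bases before it, lies in the part left out.
Kif5c: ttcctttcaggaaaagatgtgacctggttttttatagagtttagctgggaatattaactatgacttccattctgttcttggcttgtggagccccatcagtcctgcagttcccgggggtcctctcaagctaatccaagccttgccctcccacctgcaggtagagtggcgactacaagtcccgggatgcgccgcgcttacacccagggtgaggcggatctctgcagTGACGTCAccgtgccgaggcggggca
Klc1: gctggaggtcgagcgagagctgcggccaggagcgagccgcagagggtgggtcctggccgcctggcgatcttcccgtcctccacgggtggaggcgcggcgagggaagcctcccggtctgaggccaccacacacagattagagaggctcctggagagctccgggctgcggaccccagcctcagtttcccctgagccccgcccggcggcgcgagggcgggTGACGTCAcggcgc
Kif22: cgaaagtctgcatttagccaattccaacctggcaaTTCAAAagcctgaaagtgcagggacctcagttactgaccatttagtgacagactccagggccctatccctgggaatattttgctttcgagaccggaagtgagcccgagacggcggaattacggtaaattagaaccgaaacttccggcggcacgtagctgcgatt
RefSeq windows were matched for 44 of the 58 members (50 windows of 250 bases, some genes having more than 1 start). Searched on both strands, TGACGTCA was in 4 of 25 transport motor windows (Dctn3, Kif17, Kif5c and Klc1), in 0 of 13 windows of other members and in 0 of 12 mitotic windows, against 1.55% of 32851 windows of all genes. TTTGAA was in 5 of 12 mitotic windows (Kif11, Kif14, Kif15, Kif22 and Kif2c), against 16.0% of all windows. It was in 2 of 25 transport motor windows and in 2 of 13 windows of other members. The AP-1 motif TGANTCA was in 0 of the 50 member windows and in 6.75% of all. The CCAAT box was in 9 of 25 transport motor, 5 of 13 other and 8 of 12 mitotic windows (33.8% of all). For the GC box GGGCGG these counts were 14, 8 and 6 (32.7% of all), so it was not particular to the transport motors. A match describes letters only and was not tested as a binding site.

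Treated libraries were set against controls to see how motor transcripts differ after infusion of S961. Transport motor levels lay close together in both groups. Their 28 log2 fold changes, positive where treated libraries were higher, ran from -0.20 to 0.27 with a median of -0.03, beside 0.02 over all 16019 tested genes. Of the transport motors 11 had positive and 17 negative values. The largest shifts lay among scarce genes, the mitotic kinesins Kif15, Kif23 and Kif22 above and the ciliary kinesin Kif6 and the mitotic Kif20a below. By edgeR's quasi-likelihood test 0 of the 54 tested members passed at a Benjamini-Hochberg adjusted p of 0.05 (smallest adjusted p = 0.737), as did 0% of all genes. The DESeq2 Wald test and limma-voom, without and with sample weights, also called 0 members, while over all 16019 genes they called 89, 0 (without weights) and 8 (with weights).

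At an unadjusted p under 0.05, 2 of the 54 members were higher (Kif15 and Kif22) and 1 was lower (Kif6), where the background over all genes was 4.0% higher and 2.67% lower. Without treated replicate 3 none of the 3 was left and Kif26a was the 1 member under that limit. For 2 members (Kif15 and Kif22) each treated library was above each control, which is 3.70% of those tested against 7.07% of all genes. For 5 members (Kif6, Kif14, Kif16b, Kif26a and Kifc2) each treated library was below each control, 9.26% against 7.63% of all genes.

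Treated replicate 3 stood apart from the other 5 libraries, with correlations across 12197 genes of 0.920 to 0.944 to them. It had the lowest level of 18 of 28 transport motors (64.3%, where it was lowest for 34.2% of all genes) and the highest level of 6 of 10 tested mitotic kinesins (60.0%, where it was highest for 34.4% of all genes). The 28 transport motors summed to 17803, 18262 and 16615 CPM across the controls, against 18859, 18250 and 14280 CPM across the treated libraries, so the groups overlapped (exact permutation p = 0.9, two-sided). The pan-neuronal list moved with them, at 15708, 15521 and 14533 CPM across the controls, against 15959, 14996 and 11402 CPM across the treated libraries. Markers of several other cell types, but not of all, went the other way in treated replicate 3. Its 12 fat cell markers summed to 744 CPM against 16.5 to 101 CPM in the other 5 libraries, its 10 fibroblast markers to 2405 against 541 to 1270 CPM, and its 12 macrophage markers to 515 against 55.6 to 135 CPM. In that library the sympathetic and glomus markers were lowest, at 286 against 444 to 492 CPM in the others. So were the ciliated cell markers, at 36.99 against 39.55 to 40.74 CPM. Skeletal muscle and erythroid markers lay within the range of the other libraries. The part of any of these cells in the motor values was not tested. In bulk ganglia fewer neurons and less RNA per neuron cannot be told apart. Gene counts per library ran from 12898607, in treated replicate 3, to 33522486, of which the 58 members took 1.59% to 2.18%.

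Set against the pan-neuronal sum, the transport motors came to 113.3%, 117.7% and 114.3% across the controls, against 118.2%, 121.7% and 125.2% across the treated libraries. The groups did not overlap on this scale, although treated replicate 1 lay close to control replicate 2. The exact permutation p was 0.1, the smallest that 3 against 3 allows, and 0.15 adjusted over the 9 gene groups summed in this way. Dynein-1 was at 29.0%, 30.5% and 29.6% across the controls, against 31.1%, 32.4% and 33.8% across the treated libraries, also without overlap. This was not particular to dynein-1. Dynactin (8.89% to 9.24% in controls against 9.32% to 10.8% in treated libraries) and kinesin-2 (5.03% to 5.13% against 5.20% to 5.55%) had no overlap. Nor had the kinesin-1 heavy chains (27.31% to 27.91% against 28.01% to 29.45%). Kinesin-3, the light chains and the mitotic kinesins overlapped. Most of the dynein-1 sum is Dync1h1 and most of the dynactin sum is Dctn1, so the other subunits weigh less in these values. The other non-mitotic members, most of whose sum is Kif21a, were at 18.2%, 18.3% and 19.2% across the controls, against 18.1%, 17.3% and 17.6% across the treated libraries. Without Kif21a, a step chosen after the values were seen, the groups of the remaining 16 overlapped, at 3.24%, 3.42% and 3.35% against 3.16%, 3.31% and 3.73%. The ratio moves with either sum, and in treated replicate 3 both sums were the lowest of the 6 libraries. Of the 20 pan-neuronal genes, 2 were lower in each treated library than in each control, and 0 were higher. These were Snap25 (means of 1007 CPM in controls and 768 CPM in treated libraries) and Map2 (860 and 604.5 CPM). The lack of overlap therefore depends on the genes in that list, and by itself does not show a rise of the motors.

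**Figure D1:**
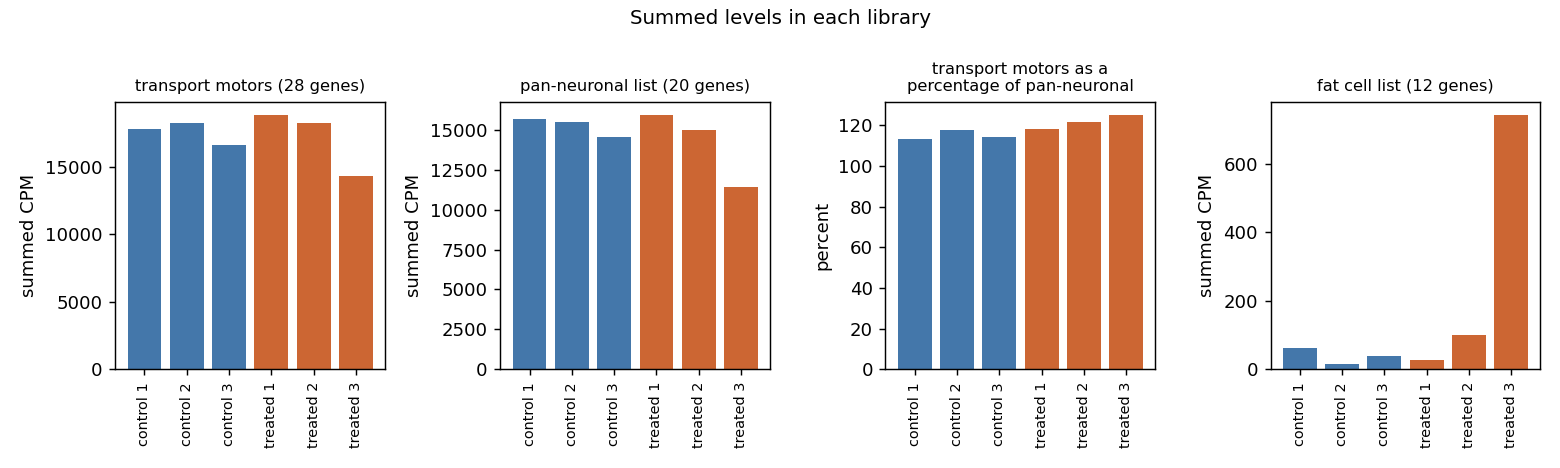
Summed CPM in each library (bars, 1 per library, blue control and orange treated) for the 28 transport motors, the 20 pan-neuronal genes, the first as a percentage of the second, and the 12 fat cell markers. Treated replicate 3 is lowest in both neuronal sums and highest, at 744 CPM, in fat cell markers.

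Levels of different genes were compared per kb of annotated exon. The 6 highest members on this scale were Klc1, Kif5a, Kif21a, Dync1h1, Kif1a and Kif5c. Klc1, which links kinesin-1 to its cargo, had 403 ± 18.4 CPM per kb in the controls (SD, n = 3), Kif5a 363 ± 23.7 and Kif21a 359 ± 2.99. The mean ± SD ranges of Klc1 and Kif5a overlapped, as did those of Kif5a and Kif21a, but not those of Klc1 and Kif21a. Next came Kif1a at 222 ± 16.9 and Dync1h1 at 218 ± 13.3 CPM per kb, which lay within each other's spread, and then Kif5c at 152 ± 2.94. The annotated exons need not be those used in this tissue, so the order is approximate.

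**Figure D2:**
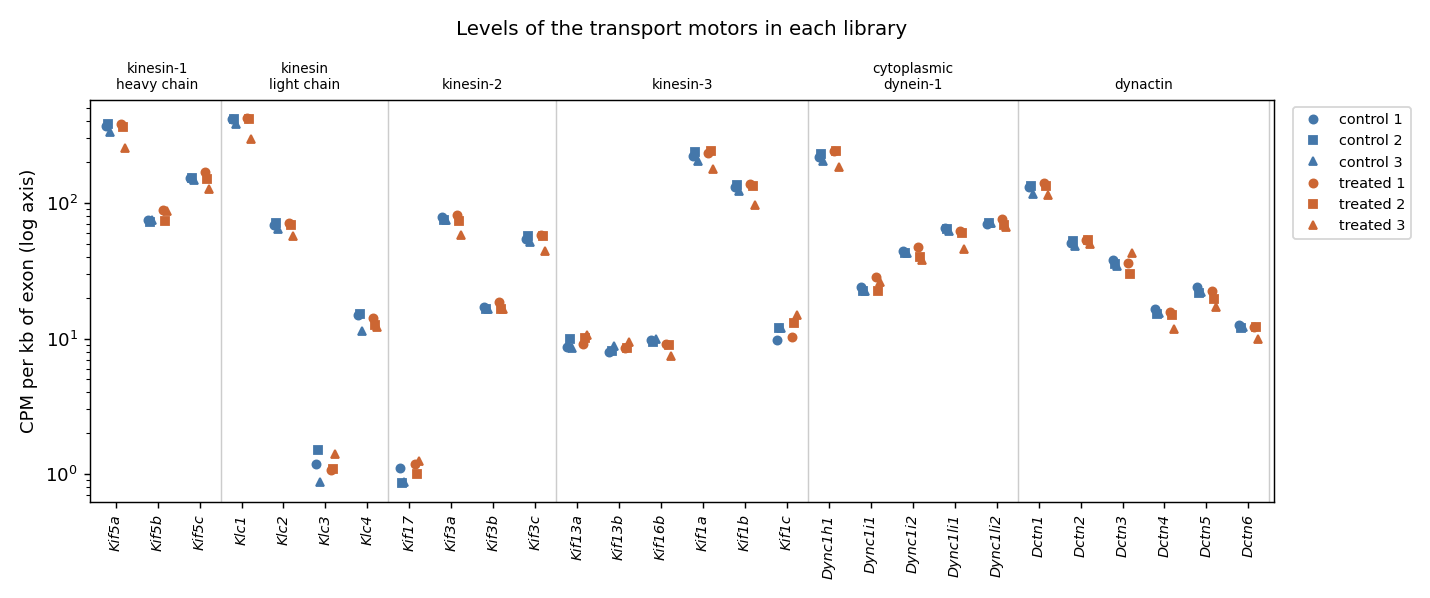
Level of each of the 28 transport motors in CPM per kb of exon (log axis) in each library, by role; blue marks are controls, orange marks treated, and the shape is the replicate. Klc1 and Kif5a are at the top, Klc3 and Kif17 near 1 CPM per kb, and the orange triangle (treated replicate 3) is often the lowest mark.

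Kinesin-1 is the main outward motor of axons, a pair of heavy chains (Kif5a, Kif5b or Kif5c) with a pair of light chains. Kif5a, the neuronal heavy chain linked to hereditary spastic paraplegia (chromosome 10, 127225696 to 127263348, minus strand, GRCm38), had 2593, 2667 and 2350 CPM across the controls, against 2661, 2544 and 1765 CPM across the treated libraries. Treated replicates 1 and 2 lay within the control range and treated replicate 3 was low. Its log2 fold change was -0.13 ± 0.17 (SE; 95% interval -0.52 to 0.27) and 0.04 without treated replicate 3. Kif5c, also neuron-enriched, had 1099, 1092 and 1060 CPM across the controls, against 1214, 1066 and 900.1 CPM across the treated libraries. Its fold change was -0.03 ± 0.13 on the log2 scale. Kif5b, the form found in nearly all cell types, had 597, 574 and 601 CPM across the controls, against 713, 592 and 693 CPM across the treated libraries. Unlike the neuronal forms, Kif5b was not low in treated replicate 3, and treated replicate 2 lay within the control range, with a log2 fold change of 0.17 ± 0.11 (edgeR adjusted p = 0.746).

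Within the kinesin-1 heavy chains, per kb, Kif5b made up 12.5%, 11.9% and 13.4% across the controls, against 14.0%, 12.6% and 18.6% across the treated libraries. The groups overlapped, and the difference of 2.48 percentage points was 0.70 without treated replicate 3. Kif5a made up 61.6% ± 1.5 in the controls and 58.6% ± 3.9 in the treated libraries (SD, n = 3). Among light chains Klc1 had 1683, 1684 and 1553 CPM across the controls, against 1712, 1699 and 1199 CPM across the treated libraries. Its share of Klc1, Klc2 and Klc4 was 83.1% ± 0.42 in controls and 82.6% ± 1.5 in treated ganglia. The groups overlapped, and the difference of -0.50 percentage points was 0.33 without treated replicate 3. Klc1 to Klc4 had log2 fold changes between -0.09 and -0.01. Klc3, a form known from sperm, was scarce, with 3.15, 4.0 and 2.30 CPM across the controls, against 2.83, 2.89 and 3.74 CPM across the treated libraries, and shares 28.1% of its exonic bases with Ercc2 on the other strand, so its few reads are uncertain.

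Kinesin-2 motors carry vesicles along axons and building material into cilia. Kif3a, which pairs with Kif3b or Kif3c, had 285, 268 and 270.0 CPM across the controls, against 291, 263 and 209.5 CPM across the treated libraries. Only treated replicate 3 lay below the control range by more than the spread of the controls. Kif3b and Kif3c had log2 fold changes of 0.03 ± 0.08 and -0.03 ± 0.13. The Kif3c value is uncertain because 40.7% of its exonic bases lie under antisense genes and the strand setting of the counting is not given. Kif17, a motor of dendrites and cilia, had 5.10, 3.92 and 3.99 CPM across the controls, against 5.42, 4.56 and 5.73 CPM across the treated libraries. The groups overlapped, and Kif17 had the highest log2 fold change of the transport motors, 0.27 ± 0.23 (edgeR adjusted p = 0.794).

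Kinesin-3 motors carry synaptic vesicle precursors, dense-core vesicles and endosomes. Kif1a, the main motor of synaptic vesicle precursors, had 2073, 2231 and 1916 CPM across the controls, against 2180, 2263 and 1649 CPM across the treated libraries. Its log2 fold change of -0.03 ± 0.15 has a 95% interval of -0.37 to 0.31. Kif1b, which carries mitochondria or vesicles depending on its splice form, was at -0.08 ± 0.16. Kif16b, a motor of early endosomes, had 88.9, 85.8 and 89.9 CPM across the controls, against 83.0, 81.2 and 67.9 CPM across the treated libraries. All 3 treated libraries lay below all controls, the 1 transport motor (3.57%) of which this held, and its log2 fold change was -0.19 ± 0.10 (edgeR adjusted p = 0.742) and -0.10 without treated replicate 3. Kif1c, an endosome and dense-core vesicle motor present in many cell types, had 70.5, 86.8 and 87.3 CPM across the controls, against 74.7, 95.3 and 108 CPM across the treated libraries. It was highest in treated replicate 3 and its log2 fold change was 0.18 ± 0.15, and 0.06 without that library. Kif13a, a motor of recycling endosomes, had 69.7, 80.4 and 68.7 CPM across the controls, against 73.8, 81.4 and 86.1 CPM across the treated libraries, and Kif13b, which carries polarity proteins, had 104, 106 and 114 CPM across the controls, against 110.0, 111 and 123 CPM across the treated libraries. Both groups overlapped in each of these genes, at log2 fold changes of 0.14 ± 0.10 and 0.09 ± 0.09, and of 0.09 and 0.04 without treated replicate 3.

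Dynein-1 is the inward motor of axons, built on the heavy chain Dync1h1 with intermediate chains (Dync1i1, Dync1i2) and light intermediate chains (Dync1li1, Dync1li2) that bind adaptors. Dync1h1 (chromosome 12, 110601452 to 110666945, plus strand, GRCm38), the motor subunit, had 3431, 3616 and 3201 CPM across the controls, against 3766, 3799 and 2872 CPM across the treated libraries. Treated replicates 1 and 2 were the highest libraries and treated replicate 3 the lowest, and the log2 fold change was 0.03 ± 0.14 (SE; 95% interval -0.31 to 0.36). Dync1i1, the neuron-enriched intermediate chain, had 86.1, 80.0 and 80.5 CPM across the controls, against 102, 80.4 and 93.7 CPM across the treated libraries. Its groups overlapped, at 0.16 ± 0.11. Dync1i2, the general form, had 366, 353 and 352 CPM across the controls, against 390.3, 328 and 312 CPM across the treated libraries, at -0.05 ± 0.11.

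The share of Dync1i1 among both intermediate chains, per kb, was 35.3%, 34.4% and 34.7% across the controls, against 37.8%, 36.2% and 41.0% across the treated libraries. All treated libraries were higher, by 3.55 percentage points on average and by 2.22 without treated replicate 3. This was the only one of 12 shares tested whose groups did not overlap. The exact permutation p was 0.1, the smallest possible, and 0.48 adjusted over the 12 shares, so the difference did not pass. Dync1li1 had 255, 250.0 and 240.1 CPM across the controls, against 241, 234 and 176 CPM across the treated libraries, and its log2 fold change was -0.19 ± 0.13, and -0.06 without treated replicate 3. Its share of both light intermediate chains was 47.5% ± 1.1 in the controls and 44.1% ± 3.2 in the treated libraries (SD, n = 3; exact permutation p = 0.2), and the groups overlapped. The difference of -3.38 percentage points was -1.59 without treated replicate 3. Dync1li2 was the steadiest transport motor (coefficient of variation over the 6 libraries 4.27%), at 419, 430.4 and 432 CPM across the controls, against 456, 417 and 402 CPM across the treated libraries.

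**Figure D3:**
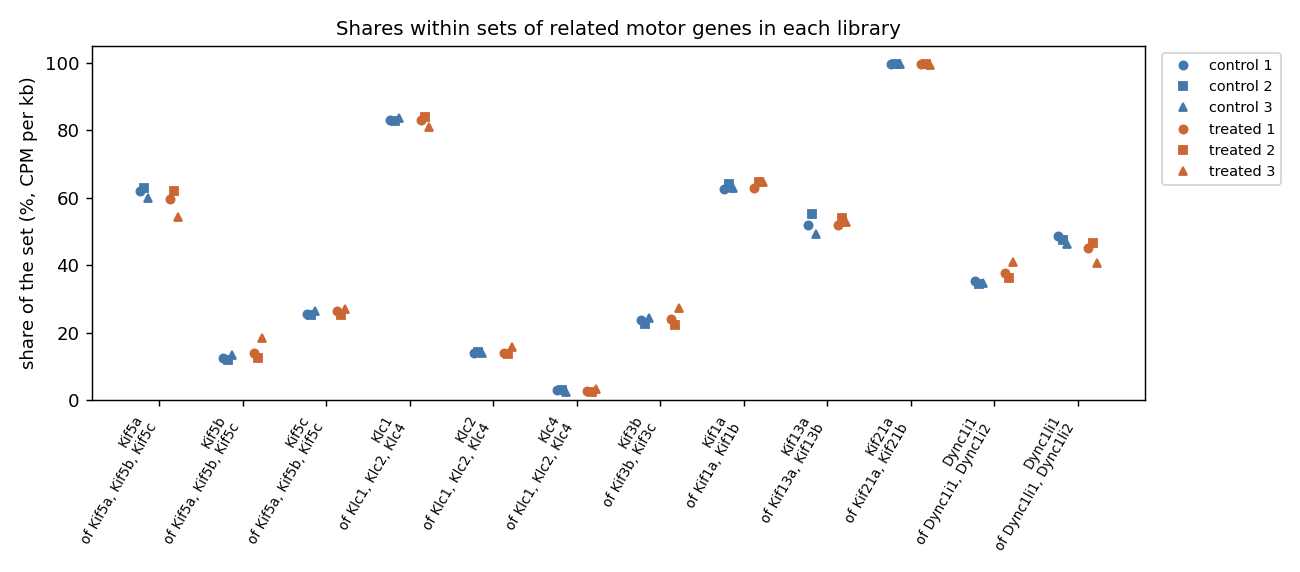
Share of each gene in its set of related motor genes in each library, in percent of the summed CPM per kb; blue marks are controls and orange marks treated, with the shape giving the replicate. Blue and orange marks overlap for every gene but Dync1i1, which is higher in all 3 treated libraries (36.2% to 41.0% against 34.4% to 35.3%). Treated replicate 3 is farthest out for several genes, among them Kif5a, Kif5b, Dync1li1 and Dync1i1 itself (41.0%).

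Dynactin tethers dynein to cargo and microtubules. The 6 subunits had log2 fold changes between -0.20 and 0.05. Dctn1, the microtubule-binding p150 subunit linked to motor neuron disease, had 855, 875 and 754 CPM across the controls, against 916, 872 and 742 CPM across the treated libraries, at 0.03 ± 0.12. Dctn2, which holds the shoulder of the complex together and starts next to Kif5a on the other strand of chromosome 10 (from 127266368), was at 0.05 ± 0.09. Dctn5, of the pointed end that meets membranes, had 63.9, 57.2 and 58.9 CPM across the controls, against 59.3, 52.0 and 45.5 CPM across the treated libraries. It was the lowest value of the transport motors at -0.20 ± 0.11 (edgeR adjusted p = 0.742), but treated replicate 1 lay within the control range. Leaving out treated replicate 3 gave -0.11, and leaving out treated replicate 1 gave -0.31. Dctn4, also of the pointed end, had 192, 177 and 179.5 CPM across the controls, against 182, 173 and 137 CPM across the treated libraries, and its log2 fold change of -0.16 ± 0.12 was -0.04 without treated replicate 3.

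A missed threshold does not show that levels were equal, so the width of the 95% intervals was set out. For 26 of the 28 transport motors (92.9%) the interval of the fold change lay within 1.5-fold in both directions, against 47.9% of all genes. The exceptions, Klc3 and Kif17, were scarce. This width depends on the level: at a mean of at least 50 CPM it held for 23 of 23 transport motors and for 82.0% of 4200 genes. Both limits were chosen after the values were seen.

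**Figure D4:**
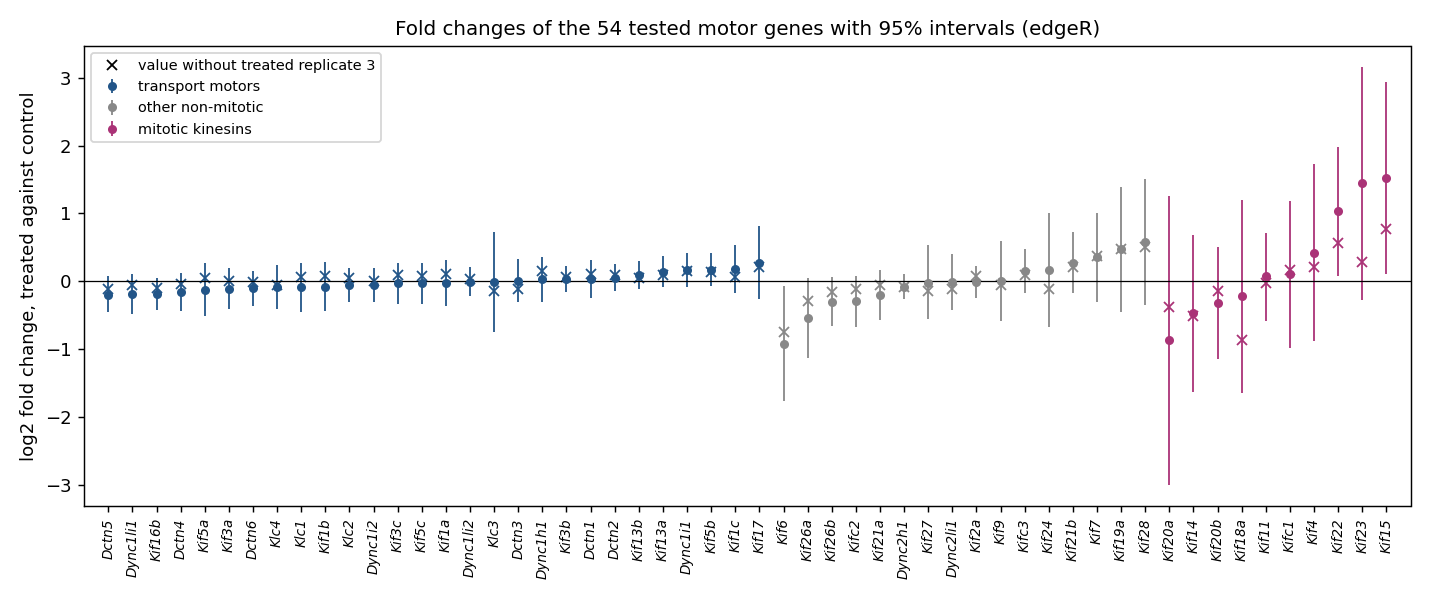
Log2 fold change of treated against control (points) with its 95% interval (lines) for the 54 tested members, ordered within transport motors, other non-mitotic members and mitotic kinesins; crosses are values without treated replicate 3. Transport motors lie between -0.20 and 0.27 with narrow intervals, and mitotic kinesins spread from -0.87 to 1.52 with wide ones.

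Among the other non-mitotic kinesins Kif21a, which stops microtubule growth, stood out by level. It had 2345, 2315 and 2310 CPM across the controls, against 2381, 2097 and 1581 CPM across the treated libraries, and made up 99.6% ± 0.088 of the Kif21a and Kif21b level per kb in the controls and 99.4% ± 0.18 in the treated libraries. Treated replicates 2 and 3 were below the controls and treated replicate 1 above them, and the log2 fold change was -0.20 ± 0.16 (-0.05 without treated replicate 3). Kif21b had 13.3, 20.8 and 16.0 CPM across the controls, against 17.1, 21.8 and 21.9 CPM across the treated libraries, with overlap, at 0.27 ± 0.19. Kif26a, a kinesin without motor activity that restrains GDNF-Ret signalling in enteric neurons, had 26.4, 27.1 and 24.1 CPM across the controls, against 21.1, 21.2 and 10.6 CPM across the treated libraries. All treated libraries were below all controls, treated replicate 3 most, and its log2 fold change of -0.54 ± 0.25 (edgeR adjusted p = 0.737) was -0.29 without that library. Its relative Kif26b had 139.7, 129 and 123 CPM across the controls, against 131, 102 and 84.7 CPM across the treated libraries, with overlap, at -0.30 ± 0.16. Leaving out treated replicate 3 gave -0.16, and leaving out treated replicate 1 gave -0.49. Kifc2, a kinesin that walks toward the minus end, had 68.1, 66.6 and 65.5 CPM across the controls, against 62.4, 60.4 and 40.2 CPM across the treated libraries, at -0.29 ± 0.16 and -0.12 without treated replicate 3.

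Kif6, a kinesin of motile cilia, had counts of 37, 73 and 48 across the controls, against 51, 49 and 13 across the treated libraries. This equals 2.12, 2.81 and 3.24 CPM across the controls, against 1.52, 1.71 and 1.03 CPM across the treated libraries, without overlap. The log2 fold change was -0.92 ± 0.37 (95% interval -1.77 to -0.07; edgeR adjusted p = 0.737), and -0.75 without treated replicate 3. The 10 markers of ciliated cells summed to between 37.0 and 40.7 CPM in all 6 libraries, and 5 of them averaged under 1 CPM. Kif28 had 1.03, 1.46 and 1.62 CPM across the controls, against 1.46, 2.47 and 2.23 CPM across the treated libraries, with overlap, at 0.58 ± 0.40. Kif19a, which shortens cilia, varied within each group, with 16.8, 36.9 and 17.8 CPM across the controls, against 22.1, 44.7 and 32.9 CPM across the treated libraries, at 0.47 ± 0.38. The ciliary dynein-2 genes Dync2h1 and Dync2li1 were at -0.08 ± 0.08 and -0.01 ± 0.18. The remaining tested members of this class, Kif2a, Kif7, Kif9, Kif24, Kif27 and Kifc3, had log2 fold changes between -0.02 and 0.35. Kif12 had counts of 7, 1 and 0 across the controls, against 1, 4 and 2 across the treated libraries, and was not tested. Kifc3, Kif7 and Kif2a share 27.5%, 20.3% and 19.2% of their exonic bases with other genes, so their values are less certain.

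Mitotic kinesins were scarce. Their 13 genes summed to 18.5, 15.5 and 16.2 CPM across the controls, against 14.6, 19.7 and 29.4 CPM across the treated libraries. The groups overlapped (exact permutation p = 0.5), and treated replicate 3 was high. The proliferation list of 30 other cell cycle genes summed to 58.8, 80.6 and 78.1 CPM across the controls, against 74.1, 91.6 and 88.1 CPM across the treated libraries, with 15 of its genes, among them Ccnb1, Cdk1 and Plk1, averaging under 1 CPM. Its part in the mitotic kinesins was not tested. The 10 tested mitotic kinesins had a median log2 fold change of 0.08, with 6 positive and 4 negative values.

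Kif15, a spindle motor that works beside Kif11, had counts of 11, 22 and 7 across the controls, against 35, 35 and 45 across the treated libraries. This equals 0.630, 0.846 and 0.473 CPM across the controls, against 1.04, 1.22 and 3.58 CPM across the treated libraries, a log2 fold change of 1.52 ± 0.61 (edgeR adjusted p = 0.737) that was 0.77 without treated replicate 3. Kif22 (chromosome 7, 127027729 to 127042471, minus strand, GRCm38), which binds chromosome arms and whose upstream sequence is shown above, had counts of 37, 61 and 24 across the controls, against 89, 98 and 83 across the treated libraries. Its levels were 2.12, 2.35 and 1.62 CPM across the controls, against 2.65, 3.41 and 6.60 CPM across the treated libraries, without overlap, at 1.03 ± 0.41 and 0.57 without that library. Kif23, a motor of the midbody in cytokinesis, had counts of 42, 24 and 19 across the controls, against 60, 55 and 114 across the treated libraries. Its groups overlapped, and its log2 fold change of 1.44 ± 0.73 was 0.28 without treated replicate 3, which alone held 114 counts.

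Treated replicate 3 was not high for every mitotic kinesin. Kif20a, a kinesin of the central spindle in cytokinesis, had counts of 37, 45 and 14 across the controls, against 31, 45 and 0 across the treated libraries, and 29.3% of its exonic bases are shared with Cdc23 on the other strand. Its log2 fold change was -0.87 ± 0.91, and -0.38 without treated replicate 3. Kif2c, a microtubule depolymerase of the kinetochore, had counts of 11, 6 and 5 across the controls, against 9, 25 and 0 across the treated libraries, and Kif18b of 17, 8 and 1 across the controls, against 2, 9 and 0 across the treated libraries. All 3 were at 0 counts in the library with the highest Kif15, Kif22 and Kif23 levels, where 0 counts allow up to 3 counts by counting error alone. Kif14, which acts in cytokinesis, had 0.573, 0.692 and 0.878 CPM across the controls, against 0.565, 0.418 and 0.557 CPM across the treated libraries, with treated replicate 1 only just below control replicate 1, at -0.47 ± 0.50. Kif20b had 2.46, 3.65 and 4.12 CPM across the controls, against 2.56, 3.66 and 1.91 CPM across the treated libraries, with overlap, at -0.32 ± 0.36, and -0.14 without treated replicate 3. Kif11, the motor that separates spindle poles and also acts in axon growth, had overlapping groups, with 3.10, 2.65 and 3.31 CPM across the controls, against 2.68, 3.24 and 3.58 CPM across the treated libraries, at 0.07 ± 0.28. Kif4, Kif18a and Kifc1 had log2 fold changes between -0.22 and 0.42. Kif2b, a form known from testis, had counts of 0, 0 and 0 across the controls, against 2, 7 and 0 across the treated libraries, and Kif2b, Kif2c and Kif18b were not tested.

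**Figure D5:**
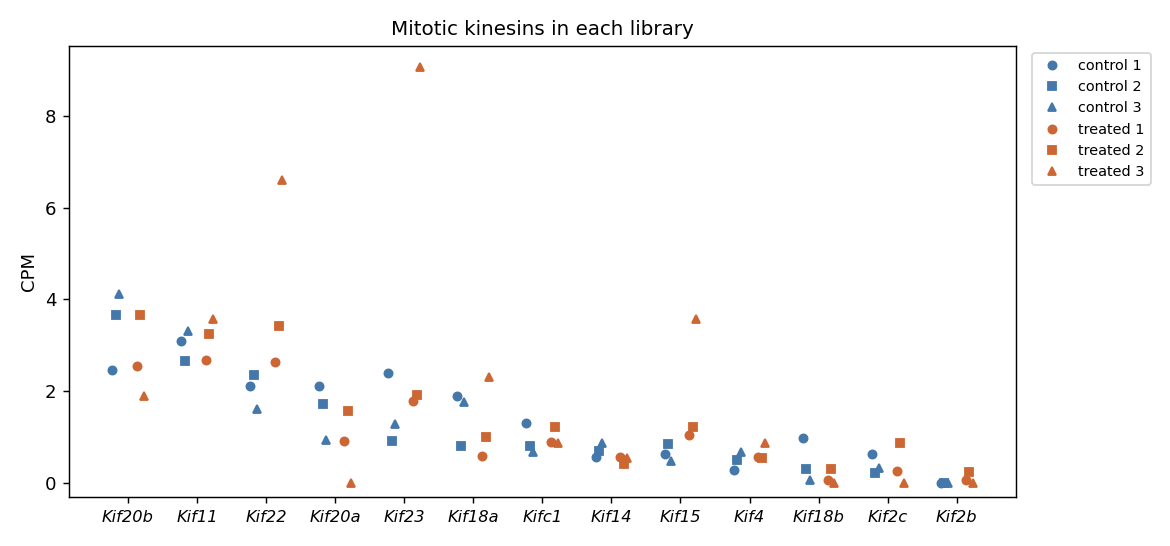
Level of the 13 mitotic kinesins in CPM in each library; blue marks are controls and orange marks treated, with the shape giving the replicate. Treated replicate 3 (orange triangle) is far above the rest for Kif23 (9.07 CPM), Kif22 (6.60 CPM) and Kif15 (3.58 CPM) and at 0 for Kif20a.

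Partners and adaptors of the motors were read from a list of 56 symbols (57 genes in the files, since Jakmip1 stands on more than 1 gene), of which 53 genes were tested. By edgeR 0 of the 53 passed at an adjusted p of 0.05, and 0 were higher and 2 lower at an unadjusted p under 0.05, against the 4.0% and 2.67% of all genes. Treated libraries were all above the controls for 1 and all below for 4 (Hap1, Map7, Hook2 and Rhot2) of the 53, where this held for 7.07% and 7.63% of all genes. The median log2 fold change of the partners was -0.07, and -0.01 without treated replicate 3. The 2 lower genes were Hap1 and Map7. Hap1, which ties huntingtin to dynactin and kinesin, had 34.3, 33.1 and 28.3 CPM across the controls, against 25.8, 24.8 and 23.3 CPM across the treated libraries. All treated libraries were below all controls, at -0.37 ± 0.11 (edgeR adjusted p = 0.670) and -0.34 without treated replicate 3. Map7, which recruits kinesin-1 to microtubules, had 265, 234 and 260 CPM across the controls, against 212, 194 and 147 CPM across the treated libraries. It also had no overlap, at -0.46 ± 0.14 (edgeR adjusted p = 0.675) and -0.31 without treated replicate 3. The dynein adaptor Hook2 had 13.6, 13.2 and 15.9 CPM across the controls, against 12.3, 11.5 and 11.1 CPM across the treated libraries, without overlap, at -0.29 ± 0.14. Of the dynactin filament genes, Actr10 had 47.8, 49.0 and 52.4 CPM across the controls, against 48.9, 41.6 and 39.1 CPM across the treated libraries, with overlap, at -0.20 ± 0.11. Actr1b had 207, 206 and 175 CPM across the controls, against 215, 208 and 230.0 CPM across the treated libraries, all treated libraries above all controls, at 0.15 ± 0.10. The dynein light chain Dynlt3 had 231, 197 and 248 CPM across the controls, against 219.5, 185 and 192 CPM across the treated libraries, with overlap, at -0.18 ± 0.12.

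Some lists of other genes differed more between the same libraries, while the ciliated cell list did not (37.0 to 40.7 CPM). The lists were chosen with earlier results of these data known, so the counts below are a description only. A nerve injury list of 16 genes summed to 526, 534 and 530 CPM across the controls, against 717, 1028 and 885 CPM across the treated libraries, with a median log2 fold change of 0.97. By edgeR 0 of its 16 genes passed at an adjusted p of 0.05, 12 were higher and 1, Vip, was lower at an unadjusted p under 0.05, against 4.0% and 2.67% of all genes. The 12 nodose neuron markers summed to between 1275 and 1362 CPM across the controls, against 990, 1013 and 495 CPM across the treated libraries. The 11 jugular neuron markers summed to between 1663 and 1940 CPM in the controls and between 1997 and 2473 CPM in the treated libraries. Whether the neuron types differ in their motor levels was not tested.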

How the data were processed

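The deposited values were raw exonic read counts per gene, 1 file per library. Per the submitters' processing notes the authors used bcl2fastq 2.20, STAR 2.7.7a, edgeR, DESeq2 and genome build mm10. Which program counted the reads, on which annotation and with what strand setting was not given in the sources used here. Per the labels, a strand-specific kit was used on some 6 ng of RNA, reads were 100 bp, and RNA integrity numbers over the study were 6.6 to 9.1. Exonic lengths and coordinates came from GENCODE M21 (GRCm38, the same build), which held all 58 members.

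Counts of treated and control libraries were compared across all genes with edgeR 4.0.16 (R 4.3.3). The filter was filterByExpr (minimum count 10), scaling used TMM (trimmed mean of M values), and genes were tested with a robust quasi-likelihood F test, adjusted by the Benjamini-Hochberg method over 16019 genes. The standard error (SE) is the log2 fold change divided by the square root of F, and the 95% interval uses the test's degrees of freedom. CPM are counts per 1000000 of the TMM-scaled library. Shares and sums were compared by two-sided exact permutation tests, whose smallest p with 3 against 3 libraries is 0.1. Library totals of 12898607 to 33522486 counts limit the precision of genes under about 1 CPM, and floors cover counting error only. Genes named with every library's value were, by rule, the 10 transport motors and the 6 other and 6 mitotic members with the smallest p, the 6 highest members per kb and the 6 partners with the smallest p. The rest were added after their values were seen. Members and lists were chosen with earlier results of these data known. Alternatives were DESeq2 1.42.0 size factors, upper quartile and library size scaling, other filters, the DESeq2 Wald test, limma-voom (limma 3.58.1), no robust shrinkage, a block on replicate number, and leaving out each library. The edgeR fit was tested on simulated data.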

Additional observations from a re-analysis of the deposited data

How the results depend on the processing

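No alternative called a member at an adjusted p of 0.05, while over all genes 26 were called with no filter, 89 by the DESeq2 Wald test, 8 by limma-voom with sample weights, 7 without treated replicate 1, 9 without treated replicate 3, 1 with the replicate block and 0 under the rest. At an unadjusted p under 0.05, 2 members were higher (Kif15, Kif22) and 1 lower (Kif6). Under the filter of at least 5 CPM in 3 libraries, where these 3 are not tested, the counts were 0 and 0. The DESeq2 Wald test had 3 higher (with Kif23) and 2 lower (with Kif26a), and limma-voom 0 higher and 1 lower (Kif6). With sample weights 1 was higher (Kif22) and 2 lower (Kif26a, Kif26b). With the replicate block Kif15, Kif22 and Kif6 were all lost, and 1 other was higher (Kif19a) and 3 lower (Kif26a, Kif26b, Kifc2). With 1 library left out these counts ran from 0 to 4 and from 0 to 3, both highest without treated replicate 1. With sample weights in limma-voom the log2 fold change of Kif20b was 0.022, of Klc1 0.0031, of Kif1a 0.078 and of Kif5c 0.0045, each reversed in sign. With 1 library left out Klc1 ran from -0.19 to 0.057, Kif5a from -0.24 to 0.037, Dync1h1 from -0.051 to 0.15, Kif1a from -0.12 to 0.10 and Kif5c from -0.15 to 0.073. Shares ran, in percentage points, from -1.08 to 0.33 for Klc1, -0.16 to 0.83 for Klc2, -0.17 to 0.25 for Klc4, -0.38 to 2.06 for Kif3b and -0.54 to 2.37 for Kif13a. Causes were not tested. The median of the transport motors ran from -0.10 without treated replicate 1 to 0.049 without treated replicate 3, and that of the mitotic kinesins from -0.065 without control replicate 3 to 0.17 without treated replicate 1 or 3, less than the spread between libraries. The genes tested differ between settings, with 55 members rather than 54 without treated replicate 3. Over the 10 mitotic kinesins of the main fit the median without that library was 0.07. Of the 26 tested members outside the naming rule, 18 changed sign under at least 1 alternative.

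Deviations from group means had correlations of 0.014, 0.564 and 0.488 between same-numbered libraries (replicates 1, 2 and 3) over 12197 genes. Treated replicates 2 and 3 correlated best with the control of the same number, but treated replicate 1 did so with control replicate 2 (0.253). Whether the replicate numbers mark pairs of libraries was not tested. Depth limits the mitotic kinesins most, many of which had fewer than 50 counts in a library.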
